A study of Mus musculus with 16 samples.

Results

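The fibroblast growth factor (FGF) pathway genes of mouse neural stem cells were followed in RNA-seq libraries of cultures that expressed an shRNA against the long non-coding RNA RUS or a scrambled shRNA. The set holds 44 genes of the 55471 lines of a deposited table, chosen by gene family and by known role: 22 Fgf genes (18 secreted, 4 intracellular), 5 receptors, 7 Sprouty and Spred genes, 3 Dusp genes, 3 Etv genes, and Il17rd with Flrt1, Flrt2 and Flrt3 (4 genes). NSCs had been isolated from embryonic cortices of C57BL/6 mice at E15-16 (the study's methods give pooled embryos of mixed sex) and grown with B27, serum and FGF2, also called bFGF (40 ng/ml per the labels, while the study's methods give another concentration). A lentivirus carried the scrambled shRNA (shRNA-CON, labelled control) or the RUS shRNA (shRNA-RUS, labelled RUS KD), 1 sequence each, so that an effect of RUS and one of that shRNA sequence cannot be told apart. RNA was taken on day 5 or day 7 after seeding, with 4 libraries per shRNA and day and 16 libraries in all. The medium was changed on day 5 to a differentiation medium whose listed components do not include FGF2. The study states that bFGF was withdrawn on that day. The labels do not say whether the day 5 cells were taken before or after that change. The day 7 cells had been in the new medium since then, so the 2 days also differ in the time spent in it. Any effect of medium cannot be told apart from that of time. Nothing in the labels says that replicates came from separate cultures, so p-values measure only the spread between these libraries, which may be technical.

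FGF proteins bind receptor tyrosine kinases (Fgfr1 to Fgfr4) together with heparan sulfate chains, and the activated receptor passes the signal through the adaptor Frs2 and Ras to the kinases Raf, MEK and ERK. ERK signalling switches on the Etv transcription factors and its own inhibitors: Sprouty and Spred proteins act on Ras and Raf, and Dusp phosphatases remove the activating phosphates of ERK. In the embryonic cortex and in culture, FGF2 is a mitogen that keeps neural stem cells dividing, and its removal is a common way to start differentiation.

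Expression is given as scaled TPM, that is TPM (a level per transcript length, so that genes can be compared) divided by a library factor of 0.845 to 1.10. Values are mean ± SD of 4 libraries unless given singly. Each library listed 25615 to 29126 genes above 0. The number of reads behind a value in 1 library is unknown, since the tables hold no counts per library. The targeted RNA itself, Gm20754, was near the lower end of what these tables resolve: the shRNA-CON libraries had 0.24, 0.11, 0.18 and 0.16 TPM on day 5 and the shRNA-RUS libraries 0.05, 0, 0.12 and 0.32 TPM (exact permutation test, two-sided, p = 0.543, n = 4 against 4). On day 7 they had 0.70, 0.72, 0.26 and 0.54 against 0.54, 0.38, 0 and 0.04 TPM (exact permutation test, p = 0.143, n = 4 against 4), so this gene does not check the labels, and replicate 4 of shRNA-RUS on day 5 held the highest value of its day. The 9 NSC and radial glia markers were all detected and did not move together (4 called higher and 3 lower with shRNA-RUS on each day). Their sum, carried by Vim and Fabp7, was 12600 to 14730 scaled TPM in shRNA-CON against 17870 to 21350 in shRNA-RUS on day 5 and 6895 to 7155 against 7176 to 7829 on day 7. Nes was lower with shRNA-RUS on both days (57.6 against 31.4 and 102 against 44.5 scaled TPM), as was Hes5, whose group means were 4.12 to 9.73 scaled TPM. The 4 endothelial markers summed to at most 0.736 scaled TPM. All 6 proliferation markers were called lower with shRNA-RUS on both days, with sums of 650 to 679 against 368 to 412 scaled TPM on day 5 and 674 to 684 against 267 to 301 on day 7. Oligodendrocyte precursor markers were lower as well (4 of 5 called on day 5, 5 of 5 on day 7), and on day 7 all 5 microglia markers were lower, with a sum of 62.2 to 67.1 in shRNA-CON and 27.0 to 35.7 scaled TPM in shRNA-RUS. Intermediate progenitor markers (1 of 4 called lower on day 5, 3 of 4 on day 7) summed to 13.6 to 15.4 against 8.70 to 10.5 scaled TPM on day 5 and 8.68 to 10.7 against 6.30 to 7.20 on day 7. Of 4 fibroblast and meningeal markers tested, 1 was called higher on day 5 and 2 on day 7, with sums of 4.46 to 5.68 against 5.45 to 7.70 scaled TPM on day 7. In bulk RNA, fewer cells of a type and less RNA per cell cannot be told apart, and the part of cell composition in the results below was not tested.

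Of the 44 genes, 29 reached a mean of at least 1 TPM in 1 or more of the 4 groups. Fgfr1, Fgfr2, Fgfr3 and Fgfrl1 had group means of 55.0 to 219 scaled TPM and were the highest, except that Spry2 (56.8) and Fgfr3 (55.0) were within their spread in shRNA-RUS on day 5. The others were lower, with Spry2, Spred1, Dusp6, Fgf1, Etv1, Fgf2, Dusp4, Fgf13 and Etv5 each reaching a mean above 20 scaled TPM in some group. On day 5, 33 of the 44 passed the minimum of 0.1 TPM, and 5 were called higher and 4 lower in shRNA-RUS (limma, adjusted p under 0.05), against 14.8% of all 22581 genes called higher and 17.9% lower. That is 15.2% and 12.1% of the members tested, near the share of all genes. On day 7, 15 of the 32 tested were higher and 6 lower, against 22.5% and 26.4% of all 24606 genes. Here 46.9% of the tested members were higher, above the share of all genes, and 18.8% were lower, below it. With a minimum of 1 TPM, 15 members were higher and 6 lower on day 7, beside 5199 and 5692 of 16333 genes. Both of these shares of genes exceed those at the minimum of 0.1 TPM. The median log2 fold change over the tested members was −0.08 on day 5 and 0.17 on day 7, beside −0.06 and −0.04 over all genes. The 5 genes higher on day 5 (Fgf1, Fgf2, Fgf11, Fgf13, Spry2) and the 4 that were lower (Fgf14, Fgfr2, Fgfr3, Spry1) were all called in the same direction on day 7. The same count was not made over all genes, so whether this is particular to the members is unknown. The day 5 split depended on the scaling: with TPM as deposited, 2 members were higher and 10 lower, and the median of all genes moved from −0.06 to −0.21. Over all genes that split was 1768 higher and 6037 lower in place of 3336 and 4037. Without replicate 1 of shRNA-CON, or without its replicate 3, 2 members were lower on day 5.

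**Figure D1:**
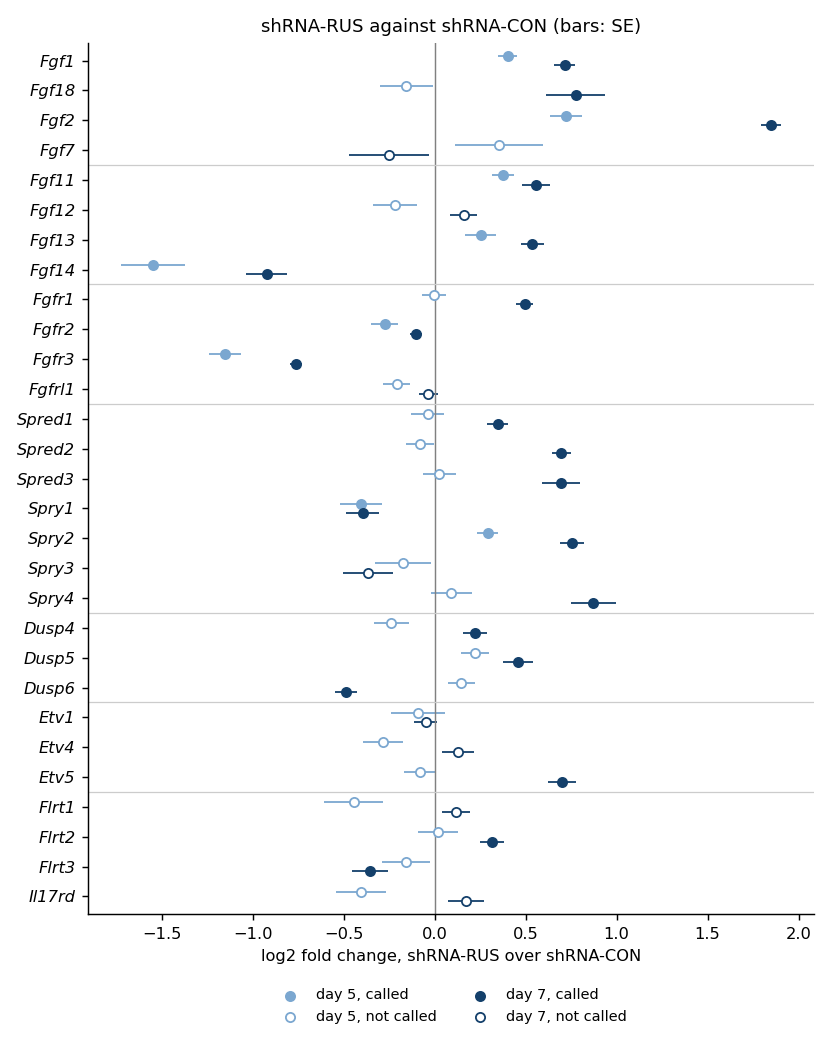
Log2 fold change of shRNA-RUS over shRNA-CON (horizontal axis, with SE) for the 29 genes with at least 1 TPM, on day 5 (light) and day 7 (dark); filled points are called by limma, and grey lines part the roles. Fgf2 on day 7 lies farthest to the right (1.85) and Fgf14 on day 5 farthest to the left (−1.55).

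Fgf2, the mitogen that was also given in the medium, was expressed by the cells themselves and was the member with the largest increase in shRNA-RUS (chromosome 3, 37348346 to 37410108, plus strand, mm10/GRCm38). On day 5 it was listed at 19.3, 18.9, 19.4 and 17.8 scaled TPM in the shRNA-CON libraries and 29.98, 29.2, 28.9 and 37.5 in the shRNA-RUS libraries. The groups did not overlap, and replicate 4 of shRNA-RUS stood above the other 3 of its group. Expression was 1.65-fold higher in shRNA-RUS (log2 fold change 0.72, SE 0.09, limma adjusted p = 0.000319, 95% interval 0.52 to 0.92), and leaving out that replicate gave 0.63, limma adjusted p = 7.73e-05. On day 7 the shRNA-CON libraries had fallen to 6.91, 6.396, 6.76 and 6.09 scaled TPM, while those with shRNA-RUS held 23.7, 23.6, 22.99 and 24.95. The lowest shRNA-RUS library of day 7 was above every shRNA-CON library of either day, and the difference was 3.61-fold (log2 fold change 1.85, SE 0.06, limma adjusted p = 5.43e-08, 95% interval 1.72 to 1.98). From day 5 to day 7, Fgf2 thus fell by 1.52 on the log2 scale in shRNA-CON and by 0.39 in shRNA-RUS (limma adjusted p = 1.84e-10 and 0.000264), and the 2 shRNA effects differed by 1.13 (SE 0.10, limma adjusted p = 4.24e-06). The fall in shRNA-RUS depended on the scaling, and with TPM as deposited it was −0.07, limma adjusted p = 0.557. The 640 exonic bases that Fgf2 shares with Nudt6, a gene on the opposite strand, make up 9.44% of its annotated exon bases. Whether counting used strand is not given in the sources used here, so reads from these bases cannot be assigned. Nudt6 itself had means of 5.93, 6.26, 6.12 and 4.24 scaled TPM (shRNA-CON and shRNA-RUS on day 5, then on day 7).

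Fgf1, which like Fgf2 is secreted without a classical signal peptide and binds all the receptors, had the highest mean of the Fgf genes in each of the 4 groups. The day 5 libraries had 28.8, 26.9, 28.3 and 26.5 scaled TPM with shRNA-CON and 35.7, 36.2, 35.7 and 38.5 with shRNA-RUS. The corresponding day 7 values were 19.6, 20.8, 20.1 and 22.3 against 36.05, 35.1, 33.7 and 31.5. No shRNA-CON library reached the lowest shRNA-RUS library of its day. Fgf1 was 1.32-fold higher on day 5 (log2 fold change 0.40, SE 0.05, limma adjusted p = 0.000518) and 1.64-fold higher on day 7 (log2 fold change 0.71, SE 0.06, limma adjusted p = 6.78e-06). It fell between the days in shRNA-CON (log2 −0.41, SE 0.05, limma adjusted p = 8.80e-06), whereas in shRNA-RUS the change was −0.10 (limma adjusted p = 0.109, 95% interval −0.21 to 0.01) and turned to 0.22, limma adjusted p = 0.00773 with TPM as deposited. With 75th percentile scaling it was −0.14, limma adjusted p = 0.0391. The ratio of Fgf2 to Fgf1 within a library, which dividing a library by 1 factor does not change, was 0.671 to 0.703 with shRNA-CON and 0.805 to 0.974 with shRNA-RUS on day 5. On day 7 it was 0.273 to 0.352 and 0.657 to 0.793. The day 7 range of shRNA-RUS thus overlapped the day 5 range of shRNA-CON, and that of shRNA-CON on day 7 lay below both.

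**Figure D2:**
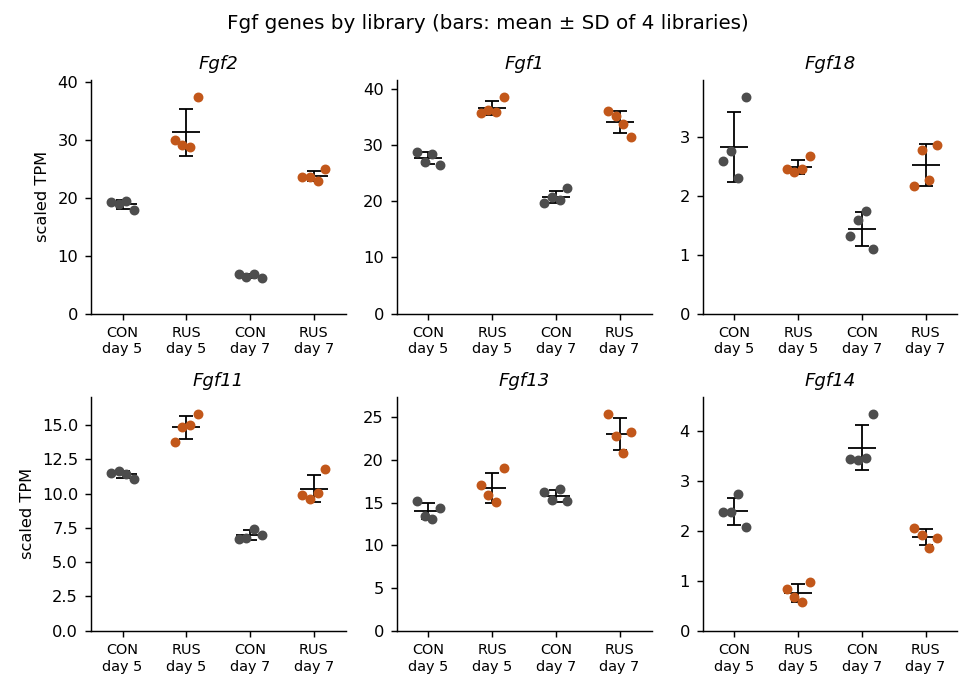
Scaled TPM (vertical axes, from 0) of 6 Fgf genes in each of the 16 libraries; grey points are shRNA-CON, orange points shRNA-RUS, and bars give mean ± SD of 4 libraries. On day 7 the shRNA-RUS libraries of Fgf2 lie between 22.99 and 24.95 and the shRNA-CON libraries at or below 6.91, while Fgf14 is lower with shRNA-RUS on both days.

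Fgf18, of the subfamily of Fgf8 and Fgf17, differed on day 7 and not detectably on day 5. Its day 5 values were 2.59, 2.77, 2.296 and 3.68 scaled TPM with shRNA-CON and 2.45, 2.41, 2.46 and 2.67 with shRNA-RUS, and these overlapped (log2 fold change −0.16, SE 0.14, limma adjusted p = 0.445, 95% interval −0.48 to 0.17). By day 7 the shRNA-CON libraries were at 1.31, 1.597, 1.75 and 1.105 and the shRNA-RUS libraries at 2.17, 2.79, 2.26 and 2.86, without overlap (log2 fold change 0.77, SE 0.16, limma adjusted p = 0.00313). Fgf9, a ligand that prefers Fgfr3 and is on the study's list of putative RUS targets, was low. It stood at 0.402, 0.5305, 0.278 and 0.521 scaled TPM with shRNA-CON and 0.331, 0.245, 0.416 and 0.334 with shRNA-RUS at the first time point (day 5). Its day 7 values were 0.765, 0.771, 0.742 and 1.05 against 0.676, 0.5499, 0.482 and 0.846. The groups overlapped on both days (log2 fold change −0.29, SE 0.25, limma adjusted p = 0.413; on day 7, log2 −0.35, SE 0.20, limma adjusted p = 0.185, 95% interval −0.80 to 0.10). Between the days Fgf9 was called higher in shRNA-CON (0.82) and in shRNA-RUS (0.76), but in shRNA-RUS not after quantile normalization (0.39, limma adjusted p = 0.121). Fgf7, the keratinocyte growth factor, had means of 0.608 ± 0.1205 and 0.821 ± 0.235 scaled TPM on day 5 and 1.34 ± 0.322 and 1.11 ± 0.329 on day 7 (shRNA-CON, then shRNA-RUS), with no call between the shRNAs on either day. The other 13 secreted ligands stayed below a mean of 1 TPM in every group. Of these, Fgf17 and Fgf22 reached 0.71 and 0.50 TPM in single libraries, and Fgf3, Fgf4, Fgf5, Fgf6, Fgf8, Fgf10, Fgf15, Fgf16, Fgf20, Fgf21 and Fgf23 stayed at or below 0.17 TPM in each library, with Fgf4 listed at 0 in all 16.

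The 4 intracellular Fgf genes, whose proteins are not secreted and bind voltage-gated sodium channels, moved in different directions. Fgf14 was lower with shRNA-RUS: 2.37, 2.38, 2.73 and 2.07 scaled TPM in shRNA-CON against 0.828, 0.678, 0.567 and 0.9701 in shRNA-RUS on day 5. By day 7 the values were 3.43, 3.41, 3.46 and 4.34 against 2.06, 1.92, 1.66 and 1.86. The groups were apart on both days (log2 fold change −1.55, SE 0.17, limma adjusted p = 0.000214; on day 7, log2 −0.92, SE 0.11, limma adjusted p = 0.000104), although Fgf14 rose with time in both shRNA-CON (0.59) and shRNA-RUS (1.22). With a pseudocount of 1 TPM the day 5 log2 fold change was smaller in size (−0.95, limma adjusted p = 0.000168). The 7 neuronal markers together summed to 485 to 554 scaled TPM with shRNA-CON and 498 to 560 with shRNA-RUS on day 5, and to 708 to 788 and 659 to 784 on day 7. They moved both ways, with 2 called higher and 2 lower on day 5 (Stmn2 153 against 229, Map2 156 against 114 scaled TPM) and 3 higher and 2 lower on day 7, and their part in the Fgf14 values was not tested. Fgf11 was higher in shRNA-RUS, with 11.5, 11.6, 11.4 and 11.1 against 13.7, 14.9, 14.97 and 15.8 on day 5. The day 7 libraries had 6.704, 6.77, 7.44 and 6.995 against 9.898, 9.63, 10.1 and 11.8. No library of one group reached the other on its day (log2 fold change 0.38, SE 0.06, limma adjusted p = 0.00181; on day 7, log2 0.56, SE 0.08, limma adjusted p = 0.0002), while the day 5 call was lost with TPM as deposited (0.22, limma adjusted p = 0.0704). Fgf13, which also binds microtubules, stood at 15.2, 13.5, 13.1 and 14.3 against 17.1, 15.9, 15.04 and 19.03 on day 5. At day 7 these were 16.3, 15.3, 16.6 and 15.2 against 25.4, 22.8, 20.8 and 23.3 scaled TPM. Its groups overlapped on day 5 and were apart on day 7 (log2 fold change 0.25, SE 0.09, limma adjusted p = 0.0489; on day 7, log2 0.54, SE 0.06, limma adjusted p = 9.44e-05). The day 5 call was lost without replicate 2, 3 or 4 of shRNA-CON on day 5, or replicate 1, 2 or 4 of shRNA-RUS on day 5 (limma adjusted p between 0.0663 and 0.129). It was also lost with a pseudocount of 1 TPM (0.24, limma adjusted p = 0.0507), with no minimum (0.25, limma adjusted p = 0.0697), with TPM as deposited (0.10, limma adjusted p = 0.522) and with no trend in the empirical Bayes step (0.25, limma adjusted p = 0.0747). Fgf12 had means of 7.36 ± 0.752 and 6.33 ± 0.9698 scaled TPM on day 5 and 11.03 ± 1.04 and 12.3 ± 0.595 on day 7 and was not called between the shRNAs (−0.22 and 0.16). It gained a call on day 5 without replicate 4 of shRNA-RUS on day 5 (limma adjusted p = 0.0417) and on day 7 without replicate 2 of shRNA-CON on day 7 (limma adjusted p = 0.0254).

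Among the receptors, Fgfr3 was lower in shRNA-RUS on both days, Fgfr1 was higher on day 7, and Fgfr2 was slightly lower. Fgfr3 (chromosome 5, 33721674 to 33737068, plus strand), a receptor of radial glia and of astrocyte precursors in the cortex, was listed at 126, 114, 123 and 125 scaled TPM with shRNA-CON and 50.2, 55.8, 49.3 and 64.8 with shRNA-RUS at day 5. By day 7 the values were 120.2, 115, 123 and 114 against 68.6, 70.97, 70.9 and 68.4. The highest shRNA-RUS library of either day was far below the lowest shRNA-CON library, and expression was 0.4501 times the shRNA-CON level on day 5 (log2 fold change −1.15, SE 0.09, limma adjusted p = 3.43e-05) and 0.5899 times on day 7 (log2 fold change −0.76, SE 0.04, limma adjusted p = 3.12e-07). Of the 6 astrocyte markers, 2 were called higher and 1 lower on day 5 and 3 higher and 1 lower on day 7, and their sum was 3815 to 4015 scaled TPM with shRNA-CON and 5214 to 5688 with shRNA-RUS on day 5, and 2045 to 2109 and 2690 to 2847 on day 7. That sum was carried by Gfap and Aldoc, with day 5 means of 1848 against 2791 and 1327 against 1971 scaled TPM (shRNA-CON against shRNA-RUS). On that day Aqp4 (352.5 against 351), Aldh1l1 (303 against 305) and S100b (4.58 against 4.65) were close, and Slc1a2 was lower (86.1 against 55.3). Oligodendrocyte precursor markers summed to 230.0 to 314 against 149 to 240.2 on day 5 and 307 to 356 against 209 to 231 on day 7. None of these markers was at 0, and their part in the Fgfr3 values was not tested.

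Fgfr1 (chromosome 8, 25513654 to 25575718, plus strand), the receptor with the broadest role in cortical progenitors, had 204, 171, 178 and 180.2 scaled TPM with shRNA-CON and 170.2, 182, 187 and 191 with shRNA-RUS at day 5. These overlapped throughout (log2 fold change 0.00, SE 0.07, limma adjusted p = 0.97, 95% interval −0.15 to 0.14). On day 7 the shRNA-CON libraries had 161, 149, 163 and 148 and the shRNA-RUS libraries 206, 218, 230.2 and 222, with every shRNA-RUS library higher (log2 fold change 0.50, SE 0.05, limma adjusted p = 1.93e-05). Between the days Fgfr1 fell in shRNA-CON (log2 −0.24, SE 0.06, limma adjusted p = 0.0029) and rose in shRNA-RUS (log2 0.26, SE 0.06, limma adjusted p = 0.000833). The fall in shRNA-CON was −0.08, limma adjusted p = 0.386 with TPM as deposited and −0.08, limma adjusted p = 0.362 after quantile normalization. Fgfr2 stood at 114, 111, 115 and 111 in shRNA-CON and 85.1, 91.7, 88.8 and 109 scaled TPM in shRNA-RUS on day 5. On day 7 it stood at 143, 138, 141 and 145 against 131, 137, 128 and 131. The groups did not overlap, with replicate 4 of shRNA-RUS on day 5 nearest to the shRNA-CON range, and the differences were small (log2 fold change −0.28, SE 0.08, limma adjusted p = 0.021; on day 7, log2 −0.10, SE 0.03, limma adjusted p = 0.0212). The day 5 call was lost without replicate 1 or 3 of shRNA-CON on day 5, or replicate 1, 2 or 3 of shRNA-RUS on day 5 (limma adjusted p between 0.0511 and 0.0596), and the day 7 call without replicate 3 of shRNA-RUS on day 7 (limma adjusted p = 0.0604). The day 7 call was also lost with quantile normalization (−0.06, limma adjusted p = 0.132) and with no trend in the empirical Bayes step (−0.10, limma adjusted p = 0.08). Fgfrl1, a receptor that lacks the kinase domain, had means of 191 ± 7.02 and 165 ± 16.2 on day 5 and 115 ± 8.18 and 112 ± 4.66 scaled TPM on day 7. It was not called between the shRNAs (−0.21, limma adjusted p = 0.0517, and −0.03) although the day 5 groups did not overlap. It gained a day 5 call without replicate 2 or 3 of shRNA-RUS on day 5 (limma adjusted p = 0.0385). It was also called lower on day 5 with TPM as deposited (−0.37, limma adjusted p = 0.00374), quantile normalization (−0.35, limma adjusted p = 0.00396), 75th percentile scaling (−0.21, limma adjusted p = 0.0491) and a minimum of 1 TPM (−0.21, limma adjusted p = 0.0394). Fgfr4 did not pass 0.35 TPM in any library. Annotated exons overlap those of other genes over 998 bases in Fgfr3 (G630022F23Rik, opposite strand), 314 in Fgfr2 (Ctbp2, same strand) and 164 in Fgfr1 (Gm16159), so reads from these bases are uncertain. The same holds outside the receptors for Spry1 (710 bases, 24.4% of its exon bases, Gm42922), Dusp5 (547, 22.1%, AC137853.2) and Fgf14 (220, 5.26%, Gm28932), all with genes on the opposite strand. Gm28932 had means of 0.244 against 0 scaled TPM on day 5 and 0.288 against 0.135 on day 7 (shRNA-CON against shRNA-RUS).

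In shRNA-CON on day 5, Fgfrl1 (191 ± 7.02) and Fgfr1 (183 ± 14.3 scaled TPM) led and did not differ beyond their spread, followed by Fgfr3 (122 ± 5.43) and Fgfr2 (113 ± 1.85), whose library ranges were close (126, 114, 123 and 125 against 114, 111, 115 and 111). In shRNA-CON on day 7, Fgfr1 (155 ± 7.75) led, then Fgfr2 (142 ± 2.78), with Fgfr3 (118 ± 4.21) and Fgfrl1 (115 ± 8.18 scaled TPM) within their spread of each other. In shRNA-RUS on day 5, Fgfr1 (182 ± 8.99) and Fgfrl1 (165 ± 16.2) had overlapping libraries, followed by Fgfr2 (93.7 ± 10.8) and Fgfr3 (55.02 ± 7.16 scaled TPM). In shRNA-RUS on day 7, Fgfr1 (219 ± 10.1) led, followed by Fgfr2 (132 ± 3.47), Fgfrl1 (112 ± 4.66) and Fgfr3 (69.7 ± 1.397 scaled TPM), with each mean apart from the next by more than their SDs. As a share of the summed TPM of Fgfr1, Fgfr2 and Fgfr3 within a library, Fgfr3 made up 28.3% to 30.0% with shRNA-CON and 15.2% to 17.7% with shRNA-RUS on day 5, and 28.1% to 28.9% against 16.2% to 16.9% on day 7. The share of Fgfr1 was 42.9% to 45.9% against 52.3% to 57.5% on day 5 and 36.4% to 38.2% against 50.8% to 53.6% on day 7. No library of one shRNA reached the range of the other in either share, and library scaling does not enter them. The sum of the 3 receptors was 418 ± 19.8 scaled TPM with shRNA-CON and 331 ± 25.03 with shRNA-RUS on day 5, and 415 ± 12.2 and 421 ± 10.5 on day 7, so that on day 7 the sums overlapped while the shares did not.

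**Figure D3:**
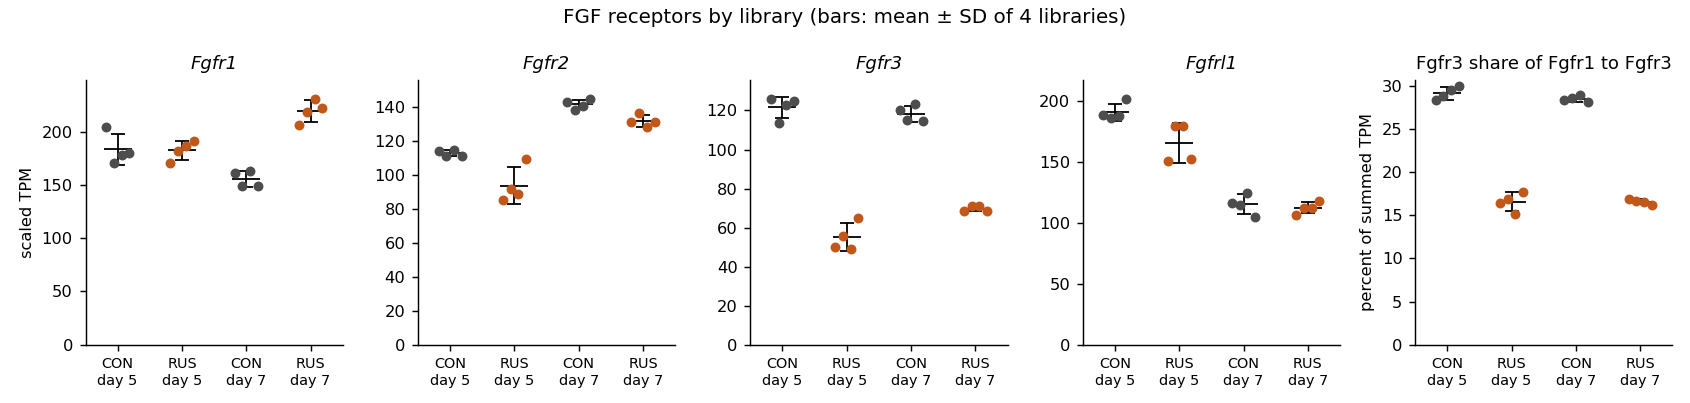
Scaled TPM (vertical axes, from 0) of 4 receptor genes in each of the 16 libraries, and on the right the share of Fgfr3 in the summed TPM of Fgfr1, Fgfr2 and Fgfr3 in percent; grey points are shRNA-CON, orange points shRNA-RUS, and bars give mean ± SD of 4 libraries. The Fgfr3 share is 28.1% or more in each shRNA-CON library and 17.7% or less in each shRNA-RUS library.

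Of the 7 Sprouty and Spred genes, 1 was higher (Spry2) and 1 lower (Spry1) in shRNA-RUS on day 5, and 5 were higher and 1 was lower on day 7, against 14.8% of all genes higher and 17.9% lower on day 5 and 22.5% and 26.4% on day 7. The day 5 count was near that share. Spry2 (chromosome 14, 105891947 to 105896819, minus strand), an inhibitor induced by receptor tyrosine kinase signalling, had the highest mean of them on day 5. On day 7 Spred1 was above it in shRNA-CON, and in shRNA-RUS both were within their spread. Spry2 had 46.96, 48.3, 46.4 and 43.8 scaled TPM with shRNA-CON and 52.5, 56.6, 59.03 and 59.1 with shRNA-RUS on day 5. By day 7 the values were 21.97, 23.6, 22.9 and 21.7 against 35.2, 36.02, 38.4 and 43.1. The groups were apart on both days (log2 fold change 0.29, SE 0.06, limma adjusted p = 0.00403; on day 7, log2 0.76, SE 0.07, limma adjusted p = 1.19e-05), with the day 5 call lost with TPM as deposited (0.14, limma adjusted p = 0.189). Spry4 was called on day 7. Its day 5 libraries had 5.34, 4.73, 5.29 and 4.11 against 4.49, 5.35, 5.33 and 5.56 scaled TPM, which overlapped (log2 fold change 0.09, SE 0.11, limma adjusted p = 0.569). On day 7 they had 2.29, 2.08, 2.44 and 2.28 with shRNA-CON and 3.69, 3.93, 4.17 and 5.34 with shRNA-RUS, apart from each other (log2 fold change 0.87, SE 0.12, limma adjusted p = 0.000249). Spry1 went the other way. Its values were 4.77, 4.12, 4.24 and 3.805 against 3.67, 2.96, 2.79 and 3.29 on day 5. The day 7 libraries had 4.13, 3.73, 3.400 and 4.09 against 2.73, 2.99, 2.88 and 2.95, lower with shRNA-RUS without overlap on either day (log2 fold change −0.41, SE 0.12, limma adjusted p = 0.0241; on day 7, log2 −0.40, SE 0.09, limma adjusted p = 0.00449). The day 5 call of Spry1 was lost without replicate 1 or 3 of shRNA-CON on day 5, or replicate 2 or 3 of shRNA-RUS on day 5 (limma adjusted p between 0.0605 and 0.067), and with quantile normalization (−0.25, limma adjusted p = 0.126). Spry3 was low, with groups that were apart on day 7 but not called, and with means of 0.885 ± 0.104 and 0.771 ± 0.0483 on day 5 and 1.15 ± 0.08904 and 0.877 ± 0.111 scaled TPM on day 7 (log2 fold change −0.37, SE 0.14, limma adjusted p = 0.0551 on day 7). It was called lower on day 7 with a pseudocount of 1 TPM (−0.20, limma adjusted p = 0.0454) and with no trend in the empirical Bayes step (−0.37, limma adjusted p = 0.0164).

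The Spred genes, whose proteins hold Ras in check together with neurofibromin, were alike in having no call on day 5 and a call on day 7. Spred2 had 10.1, 9.58, 10.01 and 9.36 against 8.699, 9.19, 8.81 and 10.3 scaled TPM on day 5 (shRNA-CON against shRNA-RUS). Its day 7 values were 9.47, 10.2, 10.03 and 9.804 against 15.3, 15.8, 15.99 and 17.2. It overlapped on day 5 (log2 fold change −0.08, SE 0.07, limma adjusted p = 0.448) and was 1.62-fold higher on day 7, with every library apart (log2 fold change 0.70, SE 0.05, limma adjusted p = 4.72e-06). For Spred3 the values were 11.9, 12.7, 12.6 and 10.2 against 10.9, 11.9, 12.2 and 13.3 on day 5. At day 7 these were 8.597, 8.06, 8.69 and 8.15 against 11.6, 12.4, 14.2 and 16.8 scaled TPM, overlapping first (log2 fold change 0.03, SE 0.09, limma adjusted p = 0.855) and then apart (log2 fold change 0.69, SE 0.11, limma adjusted p = 0.000452). Spred1, the most abundant Spred gene, had 30.3, 32.1, 32.1 and 27.97 against 28.3, 27.8, 27.9 and 35.7 on day 5. On day 7 it stood at 27.01, 27.7, 28.1 and 32.1 against 37.5, 36.8, 34.8 and 36.8 scaled TPM. Replicate 4 of shRNA-RUS on day 5 was above all other libraries of that day. On day 7 the groups were apart (log2 fold change 0.35, SE 0.06, limma adjusted p = 0.000729), and on day 5 they were not (log2 fold change −0.04, SE 0.09, limma adjusted p = 0.788). Spred3 shares 202 exonic bases with Ggn on the opposite strand, whose reads cannot be told apart here. Ggn had means of 1.06 against 2.30 scaled TPM on day 5 and 1.14 against 2.59 on day 7 (shRNA-CON against shRNA-RUS). Its part in the Spred3 values was not tested.

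Some of these genes carry in their promoter the octamer bound by Capicua, a repressor of ERK target genes that ERK relieves. The 250 bases before and 50 bases after the start were searched on both strands in 41 RefSeq promoters (GRCm38.p6) of the 32 members with an entry, for TGAATGAA, TGAATGGA, TCAATGAA and TCAATGGA, counting a promoter once however many matches it holds or however they overlap. At least 1 of the 4 stands in 5 of the 41 member promoters (12.2%: Dusp6, Fgf21, Fgf23, Spred3 and Spry2) and in 1260 of all 32851 promoters (3.84%). The ETS core CCGGAA stands in 6 of the 41 (14.6%: Fgf5, Fgf12, Fgfr4, Fgfrl1, Flrt2 and Spry2) and in 14.9% of all. Below are the stretches of the 3 expressed members with an octamer, cut before the start site and written 5′ to 3′ along the gene, with the octamer in capitals as it reads on that strand (in Dusp6 and Spry2 it is the reverse complement). They are shown because Spry2, Spred3 and Dusp6 differ between the shRNAs on day 7, the first 2 higher and Dusp6 lower. The motif was chosen after the values were seen, and a match is a description of the letters only.
Spry2 (chr14:105896841-105896898, minus strand): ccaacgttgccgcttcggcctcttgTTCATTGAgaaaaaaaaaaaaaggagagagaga
Spred3 (chr7:29168648-29168682, minus strand): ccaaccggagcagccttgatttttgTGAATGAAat
Dusp6 (chr10:99263182-99263230, plus strand): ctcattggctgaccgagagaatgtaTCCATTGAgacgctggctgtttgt

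The 3 phosphatase genes did not move together. Dusp6 (chromosome 10, 99263231 to 99267489, plus strand), whose product acts on ERK in the cytoplasm, was lower in shRNA-RUS on day 7. Of the 13 Sprouty, Spred, Dusp and Etv genes, 8 were called higher and 2 lower on that day, against 22.5% and 26.4% of all genes. It had 31.3, 35.3, 36.1 and 29.4 scaled TPM with shRNA-CON and 36.4, 35.5, 35.1 and 39 with shRNA-RUS at day 5, which overlapped (log2 fold change 0.15, SE 0.08, limma adjusted p = 0.171). By day 7 it had 26.6, 23.7, 24.04 and 24.00 against 17.1, 16.4, 17.5 and 19.2, with every shRNA-RUS library lower (log2 fold change −0.48, SE 0.06, limma adjusted p = 0.000123). Dusp5, which acts on ERK in the nucleus, had 6.59, 7.55, 7.51 and 7.01 against 8.37, 8.33, 8.94 and 7.84 on day 5. By day 7 the values were 4.56, 3.96, 4.11 and 3.75 against 5.35, 5.85, 6.05 and 5.38 scaled TPM. The libraries were apart on both days, and day 7 passed the test while day 5 did not (log2 fold change 0.22, SE 0.08, limma adjusted p = 0.0524; on day 7, log2 0.46, SE 0.08, limma adjusted p = 0.00126). Day 5 passed it without replicate 4 of shRNA-RUS on day 5 (limma adjusted p = 0.0333), and with a minimum of 1 TPM (0.22, limma adjusted p = 0.0378) and with quantile normalization (0.35, limma adjusted p = 0.0113), while with TPM as deposited the value was 0.07, limma adjusted p = 0.522. Dusp4, a nuclear phosphatase of ERK and other MAP kinases, had 17.9, 14.7, 17.8 and 18.4 against 15.4, 15.2, 15.3 and 12.4 on day 5. The day 7 libraries had 24.8, 25.04, 27.2 and 24.6 against 27.1, 27.9, 31.3 and 32.8 scaled TPM. Its groups overlapped on both days (log2 fold change −0.24, SE 0.10, limma adjusted p = 0.0951; on day 7, log2 0.22, SE 0.07, limma adjusted p = 0.0211). The day 7 call was lost without replicate 1, 2 or 4 of shRNA-CON on day 7, or replicate 3 of shRNA-RUS on day 7 (limma adjusted p between 0.051 and 0.058), and a lower level was called on day 5 without replicate 2 of shRNA-CON on day 5 (limma adjusted p = 0.0385) and with TPM as deposited (−0.39, limma adjusted p = 0.0128).

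Among the Etv genes, transcription factors of the ETS family that act downstream of ERK, Etv5 alone was called between the shRNAs, and on day 7 alone. Etv5 (chromosome 16, 22381309 to 22439719, minus strand) had 17.1, 18.2, 19.00 and 16.2 scaled TPM with shRNA-CON and 15.3, 16.5, 15.7 and 19.2 with shRNA-RUS at day 5, overlapping (log2 fold change −0.08, SE 0.09, limma adjusted p = 0.511). By day 7 it had 13.8, 12.6, 13.7 and 14.2 against 19.98, 20.6, 23.1 and 25.1, without overlap (log2 fold change 0.70, SE 0.08, limma adjusted p = 5.19e-05). Etv4 had means of 9.92 ± 1.59 and 8.04 ± 0.214 on day 5 and 4.72 ± 0.329 and 5.18 ± 0.472 scaled TPM on day 7 (−0.29, limma adjusted p = 0.0763, and 0.13, limma adjusted p = 0.256). A lower level of Etv4 was called on day 5 without replicate 4 of shRNA-CON on day 5 (limma adjusted p = 0.0172) and with TPM as deposited (−0.44, limma adjusted p = 0.016). Etv1 had 14.8 ± 2.38 and 13.98 ± 2.61, then 31.1 ± 2.11 and 30.1 ± 2.03 scaled TPM, and the shRNAs did not differ detectably (−0.09 and −0.05, 95% interval on day 7 −0.19 to 0.09). Il17rd, which encodes the membrane inhibitor Sef, had means of 1.304 ± 0.0761 and 0.964 ± 0.116 on day 5, where the groups did not overlap but missed the threshold (limma adjusted p = 0.0523), and 1.800 ± 0.0899 and 2.04 ± 0.136 scaled TPM on day 7. It was called lower on day 5 with a pseudocount of 1 TPM (−0.23, limma adjusted p = 0.044), with TPM as deposited (−0.54, limma adjusted p = 0.0217) and with no trend in the empirical Bayes step (−0.40, limma adjusted p = 0.0165), and higher on day 7 with quantile normalization (0.27, limma adjusted p = 0.0473). Flrt2 and Flrt3 encode membrane proteins with leucine-rich repeats. Flrt2 stood at 11.04, 9.66, 10.3 and 10.3 against 11.1, 9.72, 8.77 and 12.6 on day 5. At day 7 these were 9.71, 10.3, 10.7 and 11.3 against 13.5, 13.5, 13.5 and 11.9 scaled TPM, higher on day 7 without overlap (log2 fold change 0.31, SE 0.07, limma adjusted p = 0.00301) but not detectably so on day 5 (0.02). Flrt3 stood at 3.66, 3.18, 2.86 and 2.95 against 3.28, 2.38, 2.59 and 3.104 on day 5. On day 7 it stood at 4.83, 4.96, 4.58 and 5.703 against 4.47, 3.64, 3.72 and 3.78, and was lower on day 7 (log2 fold change −0.35, SE 0.10, limma adjusted p = 0.013) with the day 5 groups overlapping (−0.16). Flrt1 had means of 2.07 ± 0.408 and 1.49 ± 0.224, then 3.53 ± 0.261 and 3.84 ± 0.0513 scaled TPM, with no call between the shRNAs (−0.45 and 0.12) although the day 7 groups did not overlap. A lower level was called on day 5 without replicate 4 of shRNA-RUS on day 5 (limma adjusted p = 0.0302) and with TPM as deposited (−0.59, limma adjusted p = 0.0365).

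**Figure D4:**
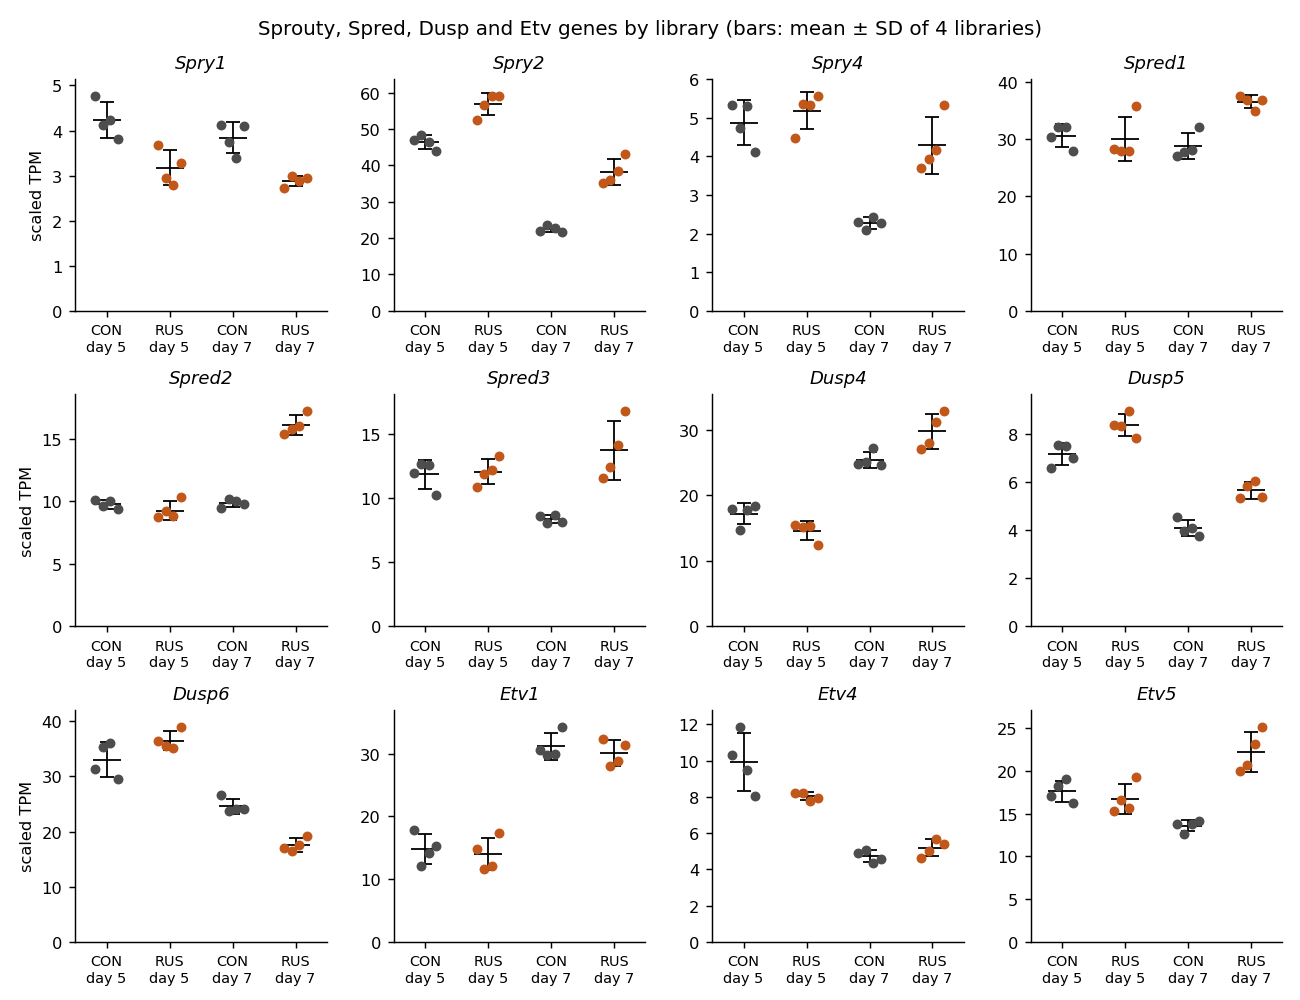
Scaled TPM (vertical axes, from 0) of 12 Sprouty, Spred, Dusp and Etv genes in each of the 16 libraries; grey points are shRNA-CON, orange points shRNA-RUS, and bars give mean ± SD of 4 libraries. On day 7, Spry2, Spry4, Spred1, Spred2, Spred3, Dusp5 and Etv5 are higher in every shRNA-RUS library than in any shRNA-CON library, and Dusp6 and Spry1 are lower.

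The same genes were compared between the days within each shRNA. In shRNA-CON, 11 of the 33 tested members were called higher and 14 lower on day 7, against 26.9% of all genes higher and 21.6% lower. With TPM as deposited, 13 were higher and 12 lower. Of the 13 Sprouty, Spred, Dusp and Etv genes, 7 fell (Spry2, Spry4, Spred3, Dusp5, Dusp6, Etv4 and Etv5), 3 rose (Spry3, Dusp4 and Etv1) and 3 passed no test. The falls ranged from −0.37 for Etv5 to −1.06 for Spry4. In level, Spry2 went from 46.3 to 22.5, Spry4 from 4.87 to 2.27 and Etv4 from 9.92 to 4.72 scaled TPM. Fgf2 (−1.52), Fgf18 (−0.93), Fgfrl1 (−0.73) and Fgf11 (−0.70) fell as well. Etv1 rose from 14.8 to 31.1 (log2 1.07, SE 0.12, limma adjusted p = 2.48e-06) and Fgf7 from 0.608 to 1.34 scaled TPM (log2 1.01, SE 0.23, limma adjusted p = 0.00188). The fall of Etv5 was −0.22, limma adjusted p = 0.0714 with TPM as deposited, and the rise of Spry3 (0.35) was lost without replicate 2 or 4 of shRNA-CON on day 5, or replicate 1, 3 or 4 of shRNA-CON on day 7 (limma adjusted p between 0.0502 and 0.0953), and with no minimum (0.35, limma adjusted p = 0.0721) and with quantile normalization (0.09, limma adjusted p = 0.595).

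In shRNA-RUS, 17 of the 33 members were higher and 8 lower on day 7, against 35.0% and 25.8% of all genes. With TPM as deposited, 21 were higher and 7 lower. Of the 13 feedback genes, 4 fell (Spry2, Dusp5, Dusp6 and Etv4) and 5 rose (Spred1, Spred2, Dusp4, Etv1 and Etv5). Etv5 thus fell in shRNA-CON and rose in shRNA-RUS (log2 0.41, SE 0.08, limma adjusted p = 0.000504), and Spred2, which was at 9.77 and 9.87 scaled TPM in shRNA-CON, rose from 9.25 to 16.1 in shRNA-RUS (log2 0.79, SE 0.06, limma adjusted p = 1.63e-08). Dusp6 fell in both, from 33.04 to 24.6 in shRNA-CON (log2 −0.42, SE 0.07, limma adjusted p = 0.000109) and from 36.5 to 17.6 scaled TPM in shRNA-RUS (log2 −1.05, SE 0.07, limma adjusted p = 3.52e-09). For Spry4 in shRNA-RUS the change was −0.28 (limma adjusted p = 0.0504), and it passed the test without replicate 4 of shRNA-CON on day 5, or replicate 1 of shRNA-RUS on day 5, or replicate 4 of shRNA-RUS on day 7 (limma adjusted p between 0.00588 and 0.0406). It also passed with a minimum of 1 TPM (−0.28, limma adjusted p = 0.0417), with quantile normalization (−0.49, limma adjusted p = 0.0023), with 75th percentile scaling (−0.31, limma adjusted p = 0.0301) and with no trend in the empirical Bayes step (−0.28, limma adjusted p = 0.0497), whereas with TPM as deposited it was 0.04, limma adjusted p = 0.818. With TPM as deposited the median of all genes moved from 0.07 to 0.20 in shRNA-CON and from 0.13 to 0.41 in shRNA-RUS, and the calls over all genes from 6394 higher and 5133 lower to 8573 and 3434, and from 8317 and 6135 to 11801 and 3545.

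**Figure D5:**
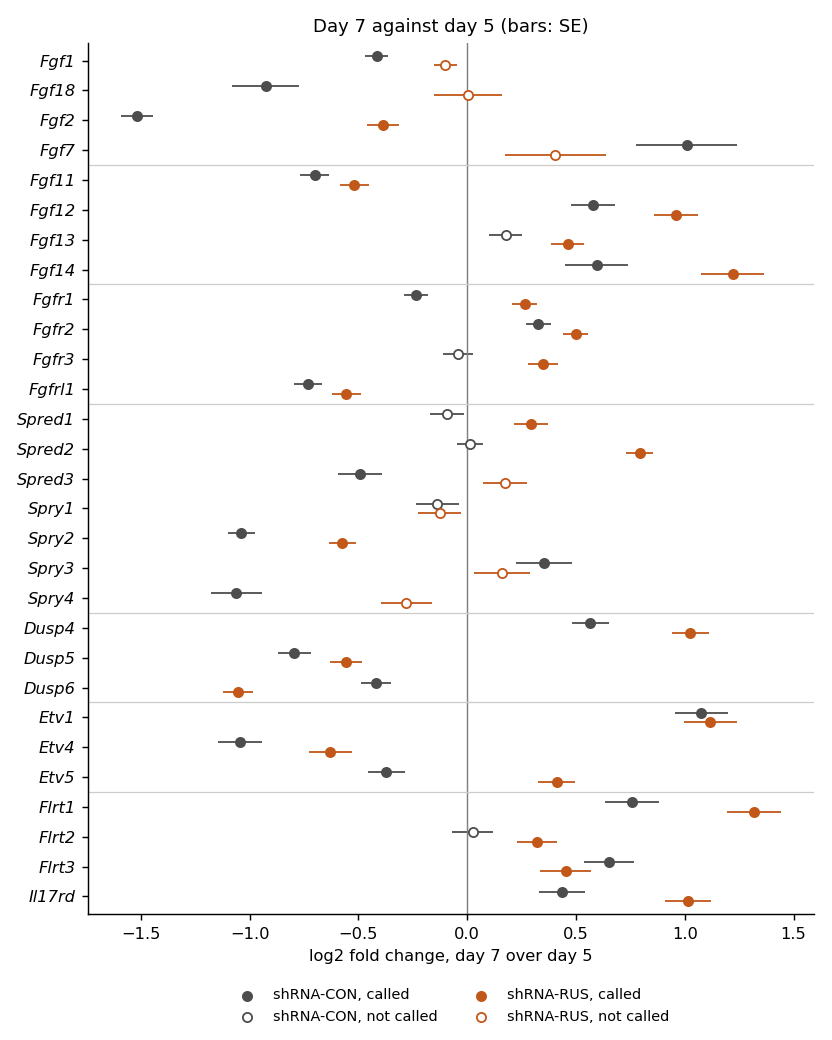
Log2 fold change of day 7 over day 5 (horizontal axis, with SE) for the 29 genes with at least 1 TPM, in shRNA-CON (grey) and shRNA-RUS (orange); filled points are called by limma, and grey lines part the roles. Fgf2 in shRNA-CON lies farthest to the left (−1.52), and Dusp6 lies further to the left in shRNA-RUS than in shRNA-CON.

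Whether the shRNA effect itself differed between the days was tested in 1 fit over the 16 libraries. It was larger (more positive) on day 7 for 17 of the 33 members and smaller for 1, against 15.2% and 14.6% of all genes. Among the 15899 genes that passed a minimum of 1 TPM, it was larger for 3504 and smaller for 3422, which are greater shares. With TPM as deposited, the effect was larger for 24 members and smaller for 1, and over all genes for 5700 and 2053 in place of 3626 and 3464. The median difference over the members was 0.38, beside 0.04 over all genes, or 0.19 over all genes with TPM as deposited. The 17 are Fgf1, Fgf2, Fgf14, Fgf17, Fgf18, Fgfr1, Fgfr3, Spry2, Spry4, Spred1, Spred2, Spred3, Dusp4, Etv4, Etv5, Flrt1 and Il17rd, and the 1 is Dusp6. Among expressed genes the difference was largest for Fgf2 (1.13), Fgf18 (log2 fold change 0.93, SE 0.22, limma adjusted p = 0.00503), Etv5 (log2 fold change 0.78, SE 0.12, limma adjusted p = 0.000207), Spry4 (log2 fold change 0.78, SE 0.17, limma adjusted p = 0.00245) and Spred2 (log2 fold change 0.78, SE 0.08, limma adjusted p = 1.39e-05), and for Dusp6 it was −0.63 (limma adjusted p = 0.00025). For Fgfr3 and Fgf14 the positive sign stands for a smaller decrease on day 7 (0.39 and 0.63). The call was lost for Etv4 without replicate 1 or 2 of shRNA-CON on day 5, or replicate 1, 2 or 3 of shRNA-RUS on day 5, or replicate 3 or 4 of shRNA-CON on day 7, or replicate 2, 3 or 4 of shRNA-RUS on day 7 (limma adjusted p between 0.0504 and 0.0745), and with no minimum (0.42, limma adjusted p = 0.0558) and with quantile normalization (0.39, limma adjusted p = 0.0519). For Fgf14 it was lost without replicate 3 of shRNA-CON on day 5, or replicate 2 or 3 of shRNA-RUS on day 5, or replicate 1, 2 or 3 of shRNA-CON on day 7, or replicate 1 or 2 of shRNA-RUS on day 7 (limma adjusted p between 0.0521 and 0.0641), and with a pseudocount of 1 TPM (0.25, limma adjusted p = 0.148), with no minimum (0.63, limma adjusted p = 0.0531) and with quantile normalization (0.48, limma adjusted p = 0.0811). For Fgf17 it was lost without replicate 4 of shRNA-CON on day 5, or replicate 1 or 3 of shRNA-RUS on day 5, or replicate 1, 2 or 4 of shRNA-CON on day 7, or replicate 2 or 4 of shRNA-RUS on day 7 (limma adjusted p between 0.0535 and 0.0789), and with a pseudocount of 1 TPM (0.28, limma adjusted p = 0.0841), with no minimum (1.13, limma adjusted p = 0.0639) and with quantile normalization (0.96, limma adjusted p = 0.074). A replicate block also removed the Fgf17 call. The call was lost for Flrt1 without replicate 3 of shRNA-RUS on day 5, or replicate 2 of shRNA-CON on day 7 (limma adjusted p between 0.0502 and 0.0519). Members gained a call without replicate 4 of shRNA-RUS on day 5, namely Fgfr2 (limma adjusted p = 0.000885), Fgf12 (limma adjusted p = 0.00805), Fgf13 (limma adjusted p = 0.0126) and Flrt2 (limma adjusted p = 0.0135), so that the count ranged from 13 to 21 when 1 library was left out.

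Other genes of the pathway were counted from 4 lists of 68 genes. On day 5, 22 of the 65 tested were higher and 14 lower in shRNA-RUS, and on day 7, 33 of 66 were higher and 14 lower, with median log2 fold changes of 0.06 and 0.18. Over all genes these shares were 14.8% higher and 17.9% lower on day 5 and 22.5% and 26.4% on day 7. By list on day 7, 9 of 14 adaptors and exchange factors were higher and 2 lower, 9 of 18 genes of the Ras-ERK cascade were higher and 4 lower, 8 of 15 other ERK regulators and ETS partners were higher and 2 lower, and 7 of 19 co-receptor and heparan sulfate genes were higher and 6 lower. On day 5 the increases were led by the ERK phosphatase gene Dusp7 (log2 fold change 0.65, SE 0.08, limma adjusted p = 0.000378), the RSK kinase gene Rps6ka2 (log2 fold change 0.63, SE 0.09, limma adjusted p = 0.000771) and Mapk3, which encodes an ERK kinase (log2 fold change 0.53, SE 0.05, limma adjusted p = 0.000116). The decreases were led by Rps6ka3, another RSK kinase gene (log2 fold change −0.88, SE 0.09, limma adjusted p = 0.000149), the FGF-binding protein gene Fgfbp3 (log2 fold change −0.72, SE 0.08, limma adjusted p = 0.000231) and the adaptor gene Shc3 (log2 fold change −0.71, SE 0.09, limma adjusted p = 0.000407). On day 7 the heparan sulfate proteoglycan gene Sdc4 led, at 123 against 239 scaled TPM (log2 fold change 0.96, SE 0.04, limma adjusted p = 1.19e-07), followed by the sulfotransferase gene Ndst2 (log2 fold change 0.85, SE 0.09, limma adjusted p = 2.89e-05) and Cic, which encodes Capicua (log2 fold change 0.84, SE 0.09, limma adjusted p = 3.87e-05). The largest decreases in shRNA-RUS on day 7 were those of the sulfotransferase gene Hs6st2 (log2 fold change −0.97, SE 0.17, limma adjusted p = 0.00125), the phosphatase gene Dusp1 (log2 fold change −0.73, SE 0.08, limma adjusted p = 7.10e-05) and Rps6ka3 (log2 fold change −0.65, SE 0.08, limma adjusted p = 0.000144). Between the days in shRNA-CON, Sdc4 went from 223 to 123 scaled TPM (log2 fold change −0.86, SE 0.04, limma adjusted p = 1.43e-10).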

How the data were processed

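Per the labels and the study's methods, polyA RNA was sequenced, reads were mapped to mm10 with STAR and quantified with RSEM, and the authors deposited 1 table of TPM per day. A column of the authors' mean normalized count (a signal value, deposited pooled over the samples) was not tested. The fold changes and p-values of the authors' own comparison were left out. The submitters' processing notes also name GRCm38. TPM was divided by median-ratio library factors over the 13614 genes with at least 1 TPM in all 16 libraries. Then log2(TPM + 0.1) was fitted with limma 3.58.1 (R 4.3.3, empirical Bayes with trend) for each gene averaging 0.1 TPM or more, and p-values were adjusted over all genes by Benjamini-Hochberg (threshold 0.05). A fold change on this scale understates the change of low genes. Each day was fitted on its 8 libraries, and the day changes and the difference of the effects on all 16. The 3 lines of the day 5 table that name no gene were left out. The members and lists were chosen with earlier results of these data known. Single values are given for members with a group mean of at least 1 TPM that were called between the shRNAs, and for Fgf2 and Fgf9. The 3 largest increases and decreases per day are named from the pathway lists. Alternatives were the scaling (none, 75th percentile, quantile), the pseudocount, the filter, the trend, a replicate block and each library left out. Library factors from the 8 libraries of the day were added after seeing the data.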

Additional observations from a re-analysis of the deposited data

Results flagged for a closer look

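In 11 of the 116 groups of 4 libraries tested among the expressed members, 1 library stood apart from the other 3 by the ratio of its gap to the range (Dixon's 95% limit), where about 1 in 20 groups would be picked by chance. Replicate 4 of shRNA-RUS on day 5 did so for 3 genes, with Fgf2 at 37.47, Spred1 at 35.74 and Dusp4 at 12.39 scaled TPM. Dusp4 also stood at 14.75 in replicate 2 of shRNA-CON on day 5 and at 27.23 in replicate 3 of shRNA-CON on day 7. Among the other shRNA-CON libraries, Fgfrl1 was at 201 in replicate 4 on day 5. On day 7, Dusp6 was at 26.63 in replicate 1, and in replicate 4 Etv1 was at 34.26 and Fgf14 at 4.336 scaled TPM. In shRNA-RUS on day 7, Flrt2 was at 11.93 in replicate 4 and Fgf7 at 1.604 scaled TPM in replicate 2.

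The shRNA effect differed between the days by the limma test of the difference itself for 18 members. As log2 differences (day 7 minus day 5) these were Dusp4 0.4598, Etv4 0.4165, Etv5 0.7818, Fgf1 0.3128, Fgf14 0.6253, Fgf17 1.129, Fgf18 0.9298, Fgf2 1.129, Fgfr1 0.5, Fgfr3 0.3904, Flrt1 0.5636, Il17rd 0.5756, Spred1 0.3852, Spred2 0.7774, Spred3 0.667, Spry2 0.4626, Spry4 0.7813 and, in the other direction, Dusp6 −0.6317.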

How the results depend on the processing

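The 21 members called between the shRNAs on day 7 kept their call under every alternative except Dusp4 and Fgfr2, and 4 of 9 did so on day 5 (not Fgf11, Fgf13, Fgfr2, Spry1 and Spry2). With TPM as deposited, 2 members were higher and 10 lower on day 5, and Fgf1 rose between the days in shRNA-RUS (0.2217, against −0.10 with the library factors and a called −0.14 with 75th percentile scaling). The change of Spry1 over the same days ranged from −0.39 (called, quantile normalization) to 0.19 and was not called otherwise. Leaving out 1 library gave 4 to 5 higher and 2 to 6 lower on day 5, 14 to 15 and 5 to 6 on day 7, and 13 to 21 for the larger effect on day 7. With a replicate block, 2 members were lower on day 5 (Spry1 and Fgfr2 lost their call, as did Fgf13 among the higher ones, and Fgfr2 on day 7), and 4957 of all genes were called on day 5 in place of 7373. For the difference of the effects between the days, Fgf17 lost its call with the block and Fgf13 gained one. Fgf13 also gained a call between the days in shRNA-CON. The deviations of same-numbered libraries correlated between −0.0991 and 0.0334 over all genes. A factor shared by same-numbered libraries that acts on few genes would not show in this value, so pairing stays unknown. Library factors from the 8 libraries of the day moved no count by over 1.5 times. The number of reads behind each TPM is unknown per library. The authors' mean normalized count was low for members below 1 TPM, such as 6.30 on day 5 and 21.5 on day 7 for Fgf17, or 13.8 and 3.52 for Fgfr4.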
